A study of Xenopus laevis with 18 samples.

Results

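The genes sox17a, sox17b, mix1, mixer and foxa2 encode transcription factors that take part in endoderm formation in the frog embryo. These genes were followed here in Xenopus laevis embryos with reduced SUMOylation. X. laevis carries 2 copies of many genes, marked .L and .S for its long and short chromosomes. A probe set was taken as a member when its annotated symbol, without the .L or .S ending, was one of the 5 names or sox17a or sox17b with a further suffix. The rule used gene names and no measured value, although the names were chosen with earlier results of these data known. It gave 10 probe sets of 23630 tested, standing for 9 gene copies of the 9149 that carry a name: sox17a.L, sox17a.S, sox17b.1.L, sox17b.1.S, mix1.L, mix1.S, mixer.L, mixer.S and foxa2.L, the last with 2 probe sets. All 5 names were found.

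Gam1 embryos had received 0.5 ng of mRNA for Gam1 in 9.2 nL at the single-cell stage, and control embryos water. Gam1 is an avian adenovirus protein that has the enzyme activating SUMO degraded, which reduces the tagging of proteins with this small modifier. In the study's assay the activity was suppressed at midblastula, measurable at late blastula and suppressed again from early gastrula. Whole embryos were collected at early gastrula (9 h after fertilization), late gastrula (13.5 h) and early neurula (16.5 h), 20 embryos to a sample, with 3 biological replicates per group and 18 Affymetrix arrays in all. Because water carried no mRNA, the effect of an injected mRNA in itself and that of Gam1 cannot be told apart. The study's methods place the injection in the animal hemisphere, whereas endoderm arises from the vegetal side of the egg. The study's assay used extract of whole embryos, and how far Gam1 acted in vegetal cells was not tested here. A whole embryo contains every germ layer, so fewer endoderm cells and less RNA per cell cannot be told apart.

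In the frog, endoderm begins with VegT, a T-box factor whose maternal mRNA lies at the vegetal pole, and with the Nodal ligands that VegT switches on. Nodal signals induce the homeobox genes mix1 and mixer within hours. Mixer in turn activates sox17, whose HMG-box products hold cells in the endodermal fate together with GATA factors. Foxa2, a forkhead factor, belongs to a later layer and is shared by definitive endoderm, notochord and floor plate.

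The members lie in clusters, and cluster neighbours are part of the description that follows. In the RefSeq annotation of the Xenopus_laevis_v10.1 assembly, sox17a.L is next to sox17b.1.L, and sox17a.S is next to sox17b.1.S. The genes bix1.3.L, bix1.1.L, mix1.L, mixer.L and lin9.L stand in a row, and so do lin9.S, mixer.S, mix1.S, bix1.1.S and bix1.2.S. The gene foxa2.L lies apart from both clusters, near nkx2-2.L. Copies within a cluster resemble each other in sequence, and how far a probe set also binds the transcript of a relative was not tested.

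Values are log2 expression as deposited, and values of a group are given for replicates 1, 2 and 3 in that order. All arrays shared the same median (7.71) and ran between 2.07 and 16.13, so a change from a value near 2.07 has only a lower limit. A level is not comparable between probe sets, and levels were set against each other only within a probe set. The number of arrays limits the precision. Changes are log2 of Gam1 over water with their SE, from limma's moderated test within each stage, and p-values were adjusted over all 23630 probe sets by the Benjamini-Hochberg method.

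Replicates stood apart at the earliest and the latest stage, in Gam1 and water embryos alike. At early gastrula, the members of replicate 2 deviated from the mean of the other replicates by a median of -1.50 log2 units in Gam1 embryos and -1.31 in water embryos. Over all probe sets the same medians were 0 and 0.01. The GATA factors gata4, gata5 and gata6 were lower still in replicate 2, with medians of -3.01 and -4.53 in Gam1 and water embryos. The other gene lists described below were lower there too, so this was not particular to the members. In Gam1 and water embryos the medians were -1.15 and -1 for mesoderm, and -0.89 and -0.73 for ectoderm. They were -1.16 and -1.32 for later endoderm, -2.58 and -2.72 for anterior endoderm, and -0.39 and -0.38 for Nodal and maternal signals. At early neurula replicate 3 was the low one, with member medians of -0.74 in Gam1 and -0.64 in water embryos, and mix1.S showed the lowest single values, -2.74 and -3.71. Gam1 and water arrays with the same number shifted together at early gastrula and early neurula. Differences within a replicate number varied less than the groups for sox17, mix1 and mixer at early gastrula. The same held for mix1 and mixer at early neurula. At late gastrula it did not hold for every member. The mix1.S pairs differed there by 1.37, 0.41 and -0.20, while the SD was 0.37 within Gam1 and 0.43 within water embryos.

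**Figure D1:**
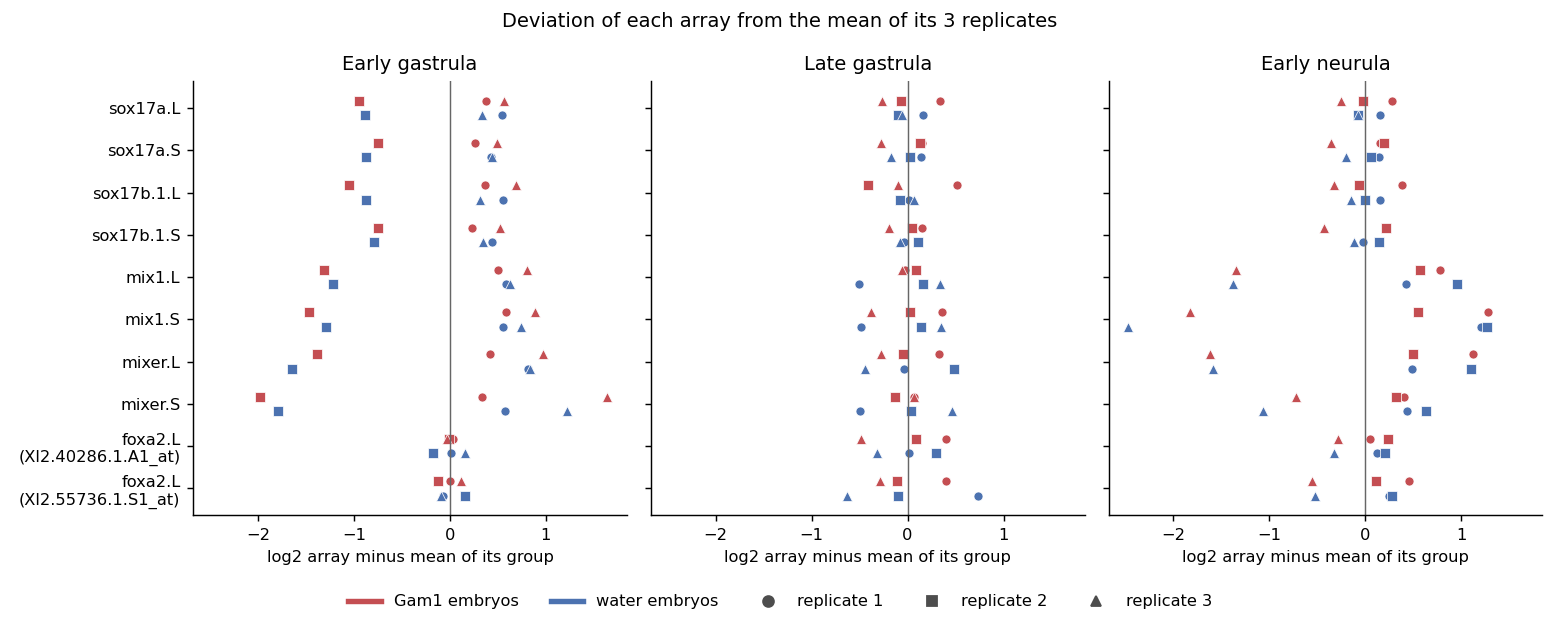
Deviation of each array from the mean of the 3 replicates of its group in log2 units, for the 10 probe sets from top to bottom and the 3 stages from left to right. Red points are Gam1 and blue points water embryos, and the shape gives the replicate. Squares (replicate 2) lie left at early gastrula in both groups for all sox17, mix1 and mixer probe sets, and triangles (replicate 3) lie left at early neurula in most.

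During normal development the members took different courses. In water embryos foxa2 appeared between early and late gastrula, sox17a.S rose, both mix1 copies fell steeply, and mixer.S fell after late gastrula. Of the 10 probe sets, 5 changed between early and late gastrula in water embryos at an adjusted p under 0.05, while 56.0% of all probe sets did. Of these 3 rose and 2 fell, beside 25.0% and 31.1% of all probe sets. Between late gastrula and early neurula 2 of 10 changed, against 15.4% of all probe sets, and both fell, beside 8.54% that fell. Most probe sets on the array moved across gastrulation, and the members' share is near that background.

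The foxa2.L probe set Xl2.40286.1.A1_at read 2.30, 2.26 and 2.24 in Gam1 embryos at early gastrula, against 2.25, 2.07 and 2.40 in water embryos. Both groups were at or near the lowest value of the scale, so a level could not be told from the floor there. By late gastrula the values were 9.57, 9.25 and 8.67 in Gam1 embryos, against 9.48, 9.77 and 9.15 in water embryos. At early neurula they were 9.32, 9.51 and 8.99 in Gam1 embryos, against 9.35, 9.43 and 8.90 in water embryos. The change from early to late gastrula was 6.89 ± 0.25 (SE) in Gam1 embryos and 7.23 ± 0.25 in water embryos, each a lower limit, with adjusted p-values of 9.11e-11 and 5.06e-11. The level at early neurula did not differ detectably from that at late gastrula in either group (adjusted p = 0.837 and 0.59 in Gam1 and water embryos).

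The other foxa2.L probe set, Xl2.55736.1.S1_at, left the floor over the same interval. It read 2.33, 2.21 and 2.45 in Gam1 embryos at early gastrula, against 2.09, 2.32 and 2.07 in water embryos. Late gastrula values were 5.91, 5.40 and 5.22 in Gam1 embryos, against 6.80, 5.97 and 5.44 in water embryos. Early neurula values were 6.31, 5.97 and 5.30 in Gam1 embryos, against 6.54, 6.57 and 5.77 in water embryos. The rise across gastrulation was 3.18 ± 0.34 in Gam1 embryos and 3.91 ± 0.34 in water embryos, again lower limits (adjusted p = 2.88e-06 and 3.73e-07). From late gastrula on, every Gam1 value of this probe set was below the water value of its own replicate, though the groups overlapped.

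For sox17a.S, an HMG-box gene of the endoderm, the early gastrula values were 9.92, 8.91 and 10.15 in Gam1 embryos and 10.49, 9.19 and 10.49 in water embryos. By late gastrula they were 11.38, 11.36 and 10.95 in Gam1 embryos and 11.56, 11.44 and 11.25 in water embryos. At early neurula they stayed at 11.46, 11.50 and 10.95 in Gam1 embryos and 11.49, 11.40 and 11.15 in water embryos. The rise across gastrulation was 1.57 ± 0.35 in Gam1 embryos and 1.36 ± 0.35 in water embryos (adjusted p = 0.00145 and 0.00389), about 2.97-fold and 2.56-fold. Late gastrula and early neurula did not differ detectably in either group (adjusted p = 0.952 and 0.966). The groups overlapped at each stage.

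The copy sox17a.L had a similar course. It read 10.48, 9.15 and 10.67 in Gam1 embryos at early gastrula, against 10.93, 9.50 and 10.72 in water embryos. Late gastrula values were 11.50, 11.09 and 10.89 in Gam1 embryos, against 11.38, 11.12 and 11.17 in water embryos. Early neurula values were 11.37, 11.06 and 10.83 in Gam1 embryos, against 11.29, 11.06 and 11.07 in water embryos. The rise was 1.06 ± 0.38 in Gam1 embryos (adjusted p = 0.03) and 0.84 ± 0.38 in water embryos (adjusted p = 0.0784). The rise in water embryos passed with the replicate number as a block (adjusted p = 0.0285). Between stages that block gives each number 1 effect at all stages, and whether the numbers match between stages was not checked. In Gam1 embryos the call was lost without replicate 1 (adjusted p = 0.13) and without replicate 2 (adjusted p = 0.0744).

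The sox17b copies, whose proteins act much as those of sox17a, moved by less than 1 log2 unit between neighbouring stages in the means. The probe set of sox17b.1.S read 11.66, 10.69 and 11.95 in Gam1 embryos at early gastrula, against 12.11, 10.88 and 12.02 in water embryos. Later, at late gastrula, it read 11.49, 11.38 and 11.14 in Gam1 embryos, against 11.31, 11.46 and 11.27 in water embryos. Then, at early neurula, it read 11.32, 11.33 and 10.68 in Gam1 embryos, against 11.04, 11.20 and 10.95 in water embryos. Its neighbouring stages did not differ detectably, with changes between -0.33 and -0.10 log2 units and adjusted p-values from 0.432 to 0.843. Without replicate 2, the array pair that was low at early gastrula, the change from early to late gastrula in water embryos was -0.78 ± 0.22 (adjusted p = 0.0201).

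For sox17b.1.L the early gastrula values were 8.46, 7.04 and 8.78 in Gam1 embryos and 8.74, 7.32 and 8.50 in water embryos. At late gastrula they were 9.44, 8.52 and 8.83 in Gam1 embryos and 8.86, 8.77 and 8.91 in water embryos. At early neurula they were 9.09, 8.64 and 8.38 in Gam1 embryos and 8.57, 8.41 and 8.27 in water embryos. The change across gastrulation was 0.83 ± 0.43 in Gam1 embryos (adjusted p = 0.116, and 0.0426 with the replicate block) and 0.66 ± 0.43 in water embryos (adjusted p = 0.209). The L and S copies of sox17b had opposite signs across gastrulation in water embryos, and neither change passed the test there.

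The homeobox gene mix1, an immediate target of Nodal signals, was lower at each later stage in every replicate of both groups. The probe set of mix1.L read 12.53, 10.72 and 12.83 in Gam1 embryos at early gastrula, against 12.78, 10.98 and 12.82 in water embryos. At late gastrula it read 9.97, 10.07 and 9.93 in Gam1 embryos, against 8.97, 9.63 and 9.82 in water embryos, the only comparison of a member in which every Gam1 array lay above every water array. At early neurula it read 8.34, 8.13 and 6.21 in Gam1 embryos, against 7.56, 8.09 and 5.75 in water embryos.

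In numbers, mix1.L changed by -2.04 ± 0.73 between early and late gastrula in Gam1 embryos and by -2.72 ± 0.73 in water embryos (adjusted p = 0.0292 and 0.00563). From late gastrula to early neurula it changed by -2.43 ± 0.73 in Gam1 embryos and by -2.34 ± 0.73 in water embryos (adjusted p = 0.0337 and 0.0448). Each of these falls was present in all 3 replicates, from -4.06 to -0.65 log2 units. The later fall lost its call in Gam1 embryos without replicate 1, 2 or 3 (adjusted p = 0.125, 0.0812 and 0.215) and in water embryos likewise (0.129, 0.0859 and 0.37). The earlier fall lost it without replicate 1 in Gam1 and water embryos (adjusted p = 0.223 and 0.137) and without replicate 3 in Gam1 embryos (adjusted p = 0.0932).

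The copy mix1.S ran in parallel. It read 12.18, 10.13 and 12.49 in Gam1 embryos at early gastrula, against 12.39, 10.55 and 12.57 in water embryos. At late gastrula it read 9.93, 9.59 and 9.19 in Gam1 embryos, against 8.56, 9.18 and 9.39 in water embryos. At early neurula it read 8.40, 7.68 and 5.30 in Gam1 embryos, against 7.41, 7.47 and 3.73 in water embryos, the widest spread of any member group. The fall across gastrulation passed the test in water embryos (-2.79 ± 1.01, adjusted p = 0.0293) but not without replicate 1 (adjusted p = 0.23) or 2 (adjusted p = 0.0552). In Gam1 embryos the change was -2.03 ± 1.01 (adjusted p = 0.106). The change from late gastrula to early neurula was -2.44 ± 1.01 in Gam1 embryos (adjusted p = 0.111) and -2.85 ± 1.01 in water embryos (adjusted p = 0.0725, and 0.0457 with the replicate block).

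For mixer, the homeobox gene that acts between Nodal signals and sox17, no change passed across gastrulation (adjusted p from 0.473 to 0.994 over both copies and groups), and all values dropped afterwards. The probe set of mixer.S read 10.38, 8.07 and 11.68 in Gam1 embryos at early gastrula, against 11.01, 8.65 and 11.66 in water embryos. At late gastrula it read 10.08, 9.88 and 10.08 in Gam1 embryos, against 9.18, 9.71 and 10.13 in water embryos. At early neurula it read 8.19, 8.11 and 7.07 in Gam1 embryos, against 7.38, 7.57 and 5.87 in water embryos. The change after late gastrula was -2.23 ± 0.85 in Gam1 embryos (adjusted p = 0.0852) and -2.73 ± 0.85 in water embryos (adjusted p = 0.0432). In water embryos the call was lost without replicate 1, 2 or 3 (adjusted p = 0.16, 0.0534 and 0.33), although the value fell in all 3 replicates of both groups.

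The probe set of mixer.L read 8.70, 6.89 and 9.25 in Gam1 embryos at early gastrula, against 9.50, 7.04 and 9.53 in water embryos. At late gastrula it read 9.28, 8.91 and 8.67 in Gam1 embryos, against 8.44, 8.97 and 8.03 in water embryos. At early neurula it read 7.77, 7.15 and 5.03 in Gam1 embryos, against 6.42, 7.04 and 4.35 in water embryos. Its change after late gastrula was -2.30 ± 0.88 in Gam1 embryos (adjusted p = 0.0867) and -2.54 ± 0.88 in water embryos (adjusted p = 0.0671, and 0.0417 with the replicate block). Across gastrulation both mixer copies went up in replicate 2 and mostly down in the others, so no common direction could be given.

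**Figure D2:**
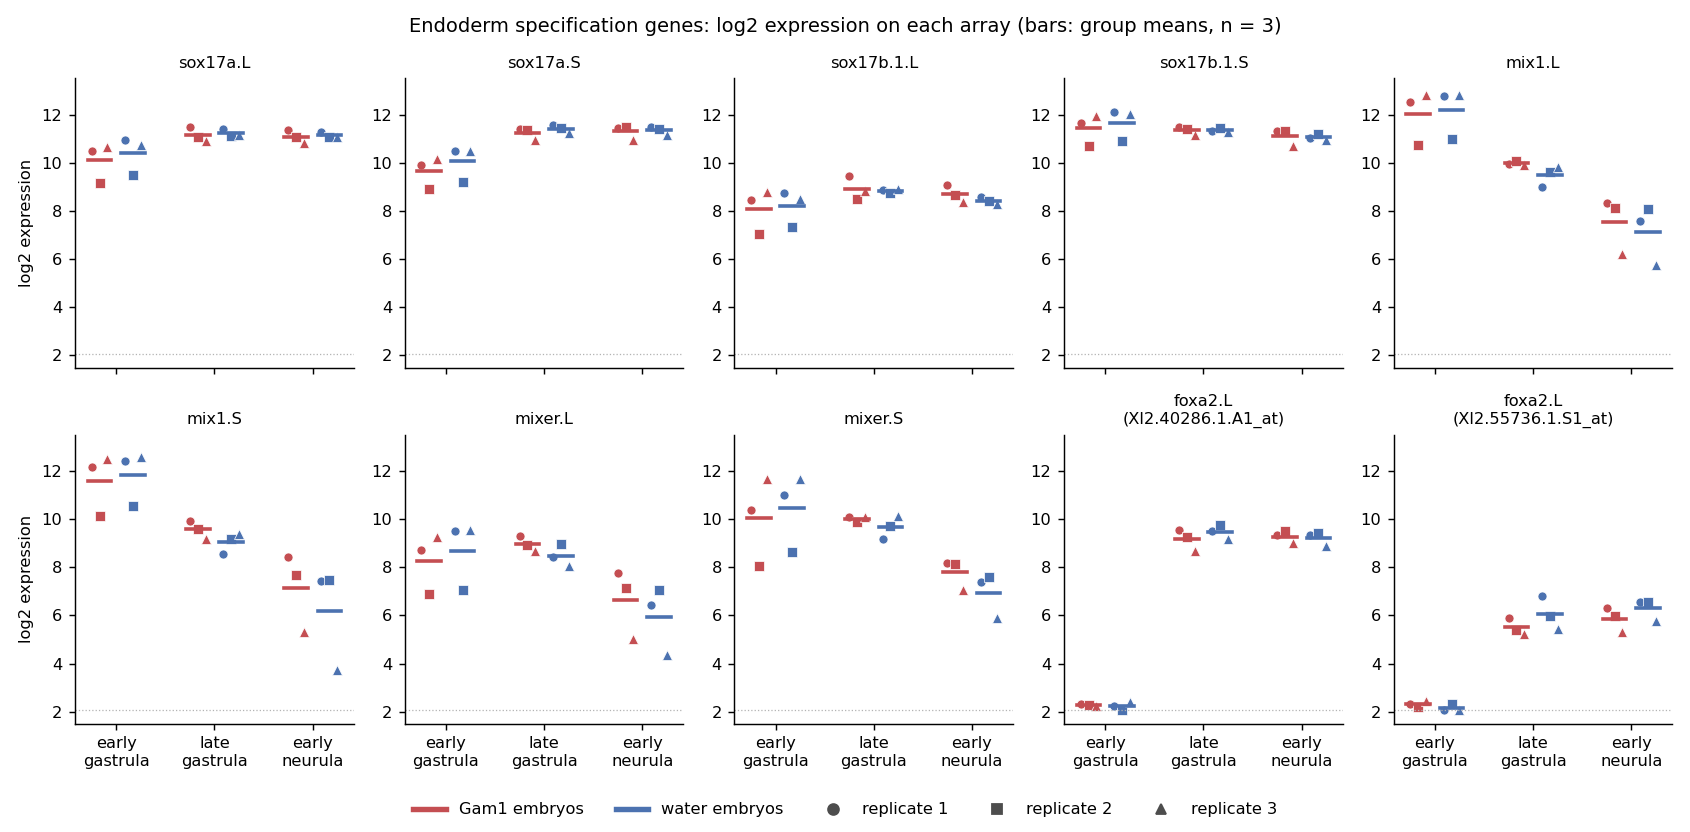
Log2 expression of the 10 probe sets on each of the 18 arrays, by stage from early to late, with Gam1 embryos in red to the left of water embryos in blue. Bars are means of 3 replicates, shapes give the replicate, and the dotted line marks 2.07, the lowest value of the scale. Values of foxa2 leave the line after early gastrula, sox17 stays high, and mix1 and mixer fall.

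In Gam1 embryos 5 of 10 probe sets were called across gastrulation, beside 54.4% of all probe sets, of which 4 rose and 1 fell, beside 24.3% and 30.1%. After late gastrula 1 of 10 was called in Gam1 embryos, lower, beside 18.5% of all probe sets in either direction and 10.3% lower. With the replicate number as a block 6 of 10 were called across gastrulation in each group, beside 66.5% of all probe sets in Gam1 and 68.1% in water embryos. After late gastrula that block called 1 of 10 in Gam1 embryos, beside 34.8%, and 4 of 10 in water embryos, both copies of mix1 and both of mixer, beside 32.2% of all probe sets.

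The design asks at each stage what Gam1 did to these genes. At early gastrula all 8 probe sets of sox17, mix1 and mixer averaged lower in Gam1 than in water embryos, by 0.09 to 0.41 log2 units. Each was less than 1 SE of the unpaired fit, which includes the differences between replicates. None passed the test, and all adjusted p-values were 1. In limma 0% of all probe sets were called, and at an unadjusted p under 0.05 the count was 0 members beside 148 probe sets (0.626%). By the Student's test of the methods it was 0 members beside 201 probe sets (0.851%). The groups did not separate for any member, while Gam1 lay wholly below water in 0.931% of all probe sets and wholly above it in 0.994%.

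Within replicate numbers, 5 of the 10 probe sets were lower in Gam1 embryos in all 3 pairs at early gastrula, a state shared by 15.6% of all probe sets, and 0 were higher in all 3, beside 15.5%. For sox17a.S the differences were -0.57, -0.28 and -0.34 log2 units, and for sox17a.L -0.45, -0.36 and -0.06. For sox17b.1.S they were -0.45, -0.20 and -0.06. For mix1.S they were -0.21, -0.42 and -0.09, and for mixer.L -0.80, -0.15 and -0.28.

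The unpaired change of sox17a.S was -0.40 ± 0.51, with a 95% interval from -1.68 to 0.89. With the replicate number as a block the SE dropped to 0.07 (unadjusted p = 0.00698, adjusted p = 0.441). The blocked fit gave an unadjusted p under 0.05 for 3 of 10, sox17a.S, sox17a.L and mix1.S, beside 9.06% of all probe sets, and an adjusted p under 0.05 for 0 of 10, beside 0%. A blocked fit over all 18 arrays, which shares 1 estimate of the spread between stages, called 0 members beside 0.161% of all probe sets.

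At late gastrula the 4 probe sets of mix1 and mixer averaged higher in Gam1 embryos, the 2 of foxa2 lower, and sox17 was close to even. None passed the test (all adjusted p = 1), and 0% of all probe sets were called. At an unadjusted p under 0.05 the count was 0 members beside 1038 probe sets (4.39%), and by the Student's test of the methods 0 members beside 972 (4.11%). The blocked fit within the stage gave an unadjusted p under 0.05 for 2 of 10, sox17a.S and foxa2 Xl2.55736.1.S1_at, beside 14.3%, and the blocked fit over all 18 arrays called 0 members beside 3.85% of all probe sets.

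The change of mix1.L came nearest to the threshold, at 0.51 ± 0.23 (unadjusted p = 0.0763), about 1.43-fold, with an interval from -0.08 to 1.11. Within pairs it was 0.99, 0.44 and 0.11 log2 units. It was 1 of 10 members higher in all 3 pairs, beside 22.4% of all probe sets, and the one whose groups did not overlap, beside 4.09% of all probe sets that lay wholly above water. No member lay wholly below it, beside 5.21%. The other copy, mix1.S, differed by 0.53 ± 0.29, and its pairs by 1.37, 0.41 and -0.20.

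The mixer copies resembled mix1 at this stage. The change was 0.47 ± 0.30 for mixer.L, with 0.84, -0.06 and 0.64 in the pairs, and 0.34 ± 0.25 for mixer.S, with 0.90, 0.17 and -0.05. Replicate 1 had the largest difference in all 4 probe sets of mix1 and mixer.

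Both foxa2 probe sets averaged lower in Gam1 embryos at late gastrula. The change was -0.31 ± 0.28 for Xl2.40286.1.A1_at and -0.56 ± 0.43 for Xl2.55736.1.S1_at. For Xl2.40286.1.A1_at the pairs differed by 0.08, -0.52 and -0.48, with replicate 1 apart from the others. For Xl2.55736.1.S1_at they differed by -0.89, -0.58 and -0.22. That probe set and sox17a.S (-0.17, -0.08 and -0.29) were the 2 of 10 lower in all 3 pairs, beside 22.0% of all probe sets.

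At early neurula mix1 and mixer again averaged higher in Gam1 embryos, now by 0.42 to 0.93 log2 units, while sox17a was even. None passed the unpaired test, and 0% of all probe sets were called. At an unadjusted p under 0.05 the count was 0 members beside 1574 probe sets (6.66%), and by the Student's test of the methods 0 beside 1596 (6.75%). The spread between replicates was wide here, and the interval for mix1.S ran from -2.49 to 4.34. Gam1 and water overlapped for every member, while Gam1 lay wholly above water in 5.54% of all probe sets and wholly below it in 7.24%.

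The gene mixer.S differed by 0.85 ± 0.58 (adjusted p = 0.882), about 1.80-fold, with pair differences of 0.81, 0.54 and 1.20 log2 units. With the replicate number as a block within the stage the SE was 0.18 and the adjusted p 0.225, and it was the 1 of 10 with an unadjusted p under 0.05, beside 17.9%. In the blocked fit over all 18 arrays the adjusted p was 0.0445. This was the 1 of 10 members called higher in that fit, beside 4.53% of all probe sets called higher, and 8.00% called in either direction. The call rests on the full set of replicates, since the adjusted p was 0.114 without replicate 1, 0.187 without replicate 2 and 0.167 without replicate 3.

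Higher in all 3 pairs at early neurula were 5 of 10 probe sets, both copies of mix1, both of mixer, and sox17b.1.L, beside 22.6% of all probe sets. The differences of mix1.S were 0.99, 0.22 and 1.57 log2 units, and those of mix1.L 0.77, 0.04 and 0.46. For mixer.L they were 1.34, 0.10 and 0.68, and for sox17b.1.L 0.52, 0.23 and 0.11. In the blocked fit over all arrays the adjusted p-values of these 4 were 0.0987 for mix1.S, 0.118 for mixer.L, 0.166 for mix1.L and 0.326 for sox17b.1.L.

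Lower in all 3 pairs was 1 of 10, the foxa2 probe set Xl2.55736.1.S1_at, beside 24.4% of all probe sets. Its pairs differed by -0.23, -0.60 and -0.47, and its change was -0.44 ± 0.39 (adjusted p = 0.925). The other foxa2 probe set differed by 0.05 ± 0.21, with pair differences of -0.02, 0.09 and 0.10, so the probe sets of foxa2 did not go the same way. For sox17a.L the change was -0.05 ± 0.16, with an interval from -0.45 to 0.35, and for sox17a.S it was -0.05 ± 0.18, from -0.51 to 0.42.

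**Figure D3:**
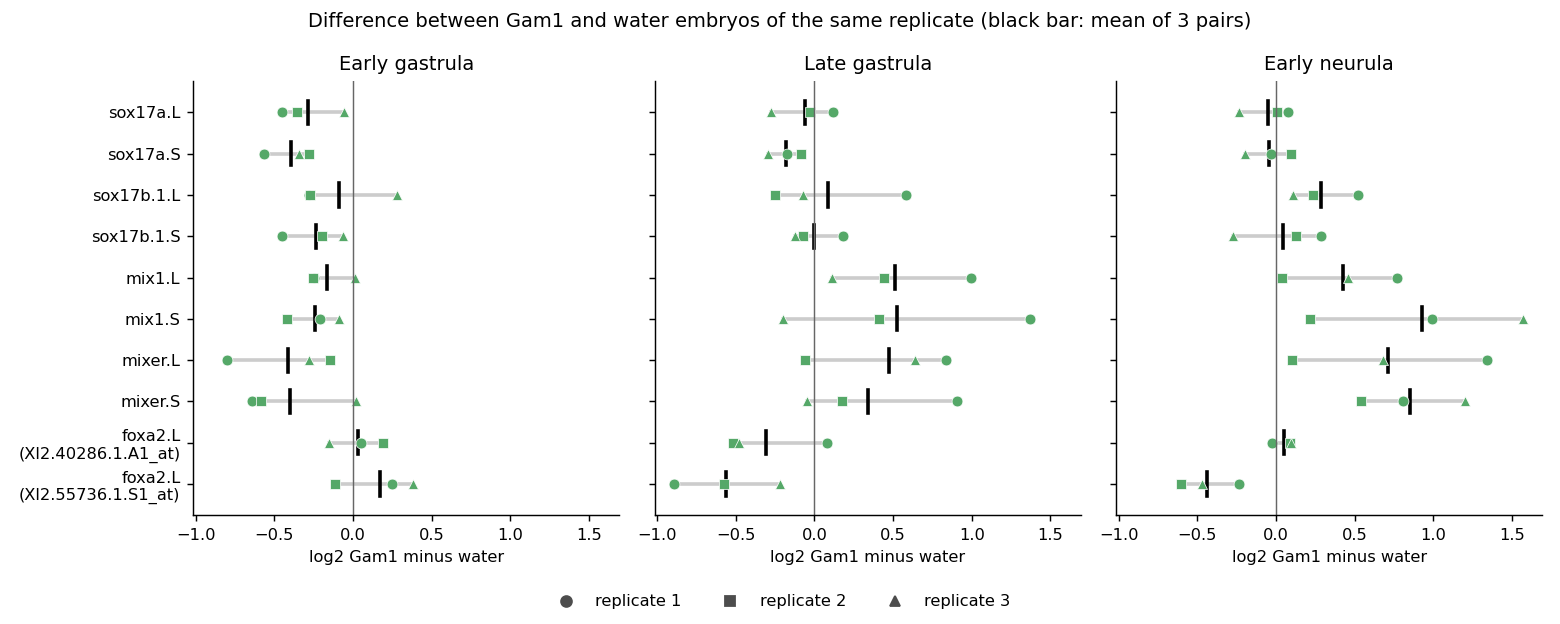
Difference in log2 expression between Gam1 and water embryos of the same replicate number, for the 10 probe sets at each stage. Points are the 3 replicates, grey lines their range and black bars their mean. Most sox17, mix1 and mixer points lie below 0 at early gastrula, and all 12 points of mix1 and mixer lie above 0 at early neurula.

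Whether the Gam1 effect differed between stages was tested directly. For mixer.S the effect at early neurula minus that at early gastrula was 1.25 ± 1.20 in the fit without pairs (adjusted p = 1) and 1.25 ± 0.29 in the blocked fit over all arrays (adjusted p = 0.0903). For mix1.S it was 1.17 ± 1.42 and for mixer.L 1.12 ± 1.25, each with an adjusted p of 1, and 0.232 and 0.176 in the blocked fit. In the 3 differences between stages 0 members passed without pairs, while 0.00423%, 0.00423% and 0.0466% of all probe sets did for late minus early gastrula, early neurula minus late gastrula and early neurula minus early gastrula. At an unadjusted p under 0.05 the members also numbered 0, beside 1.76%, 0.808% and 3.09% in the same order. The blocked fit over all arrays called 0 members as well, beside 0.190%, 0.106% and 0.978%. The mean difference of mix1 and mixer was negative at early gastrula and positive at both later stages, and the change between stages did not pass the adjusted threshold.

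The copies of a gene mostly moved together. Over the 18 arrays, which share stage and treatment, Pearson's r was 0.987 between the copies of mix1, 0.946 for sox17a, 0.93 for mixer and 0.513 for sox17b. Over the 9 differences between Gam1 and water within a replicate number, r was 0.868 for mix1, 0.803 for sox17b, 0.772 for mixer and 0.741 for sox17a. The 2 probe sets of foxa2.L reached 0.979 over arrays but -0.015 over the differences, with the same sign in 4 of 9. Arrays with the same number within a stage shifted together, so the arrays are not independent points, and the correlations are descriptions.

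Among 10939 probe sets of other genes that averaged 5 or more in some group, those most like each member over the 18 arrays were picked by Pearson's r. For mix1.L they were bix1.3.L (0.996), zpr1.L (0.987) and bix1.3.S (0.984), and for mix1.S bix1.3.L (0.981), pdhb.L and nup88.L. For mixer.S they were bmp7.2.L (0.966), zswim4.L and srsf7.L, and for mixer.L ppwd1.S (0.93), pou5f3.2.L and bmp7.2.L. The 2 mix1 copies shared bix1.3.L, a homeobox gene of the same chromosome row as mix1.L, and the mixer copies shared bmp7.2.L.

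For sox17a.S the closest were metrnl.L (0.989), pou5f3.1.L (0.985) and XB5776174.S (0.984), and for sox17a.L hunk.L (0.97), hnrnpu.S and has-rs.S (0.958 each). For sox17b.1.L they were wnt8a.L (0.929), thumpd1.S and foxa4.L, and for sox17b.1.S nudt22.L (0.888), e2f7.L and eomes.L (0.847). For foxa2.L they were sp5.L, nrp2.S and msgn1.L, each at 0.996, with Spearman's rho of 0.742, 0.701 and 0.519. All 6 early gastrula arrays of foxa2.L lie at the floor.

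The genes around the members in the pathway were described as lists, each gene by its brightest probe set. For list genes compared between Gam1 and water within a stage, an adjusted p from the fit paired over all 18 arrays is given where under 0.05. It is also given for some others, and those not given were 0.05 or more. That fit called 0.161%, 3.85% and 8.00% of all probe sets in stage order. Most of these calls were lost when a replicate was left out, and at late gastrula none remained without replicate 2. The calls of list genes were not followed one by one in this way. Of the Nodal and maternal signals 18 of 20 names were found, standing for 27 gene copies. In Gam1 embryos 21 averaged lower and 6 higher at early gastrula (median -0.06), and 10 lower and 17 higher at late gastrula (median 0.03). At early neurula 8 were lower and 19 higher, with a median of 0.15, beside 0 over all probe sets at each stage, and 0 were called by the unpaired test.

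The ligand gene gdf3.S, of the TGF-β family, differed by 0.53 ± 0.15 at late gastrula (adjusted p = 0.944) and by 1.06 ± 0.41 at early neurula (adjusted p = 0.74). Paired over all 18 arrays, its adjusted p at early neurula was 0.0109. That fit called 4 of 27 copies of the list at early neurula, all higher, while it called 8.00% of all probe sets, 4.53% higher. The others were tdgf1.3.L, for a Nodal co-receptor (0.38 ± 0.56 unpaired, paired adjusted p = 0.00857), vegt.L (0.44 ± 0.36, 0.0409) and vegt.S (0.51 ± 0.56, 0.0318). How much of the vegt signal at early neurula was maternal RNA was not tested. The T-box gene vegt.S differed by 0.32 ± 0.11 at late gastrula (adjusted p = 1), and lefty.L, which encodes an inhibitor of Nodal, by 0.51 ± 0.24 at early neurula (adjusted p = 0.803). At early gastrula the nearest were nodal3.1.L (0.28 ± 0.24) and tdgf1.2.S (0.04 ± 0.03), both with an adjusted p of 1. The paired fit called 1 of 27 copies for the Gam1 effect at early neurula minus early gastrula, beside 0.978% of all probe sets.

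The bix1 genes, neighbours and relatives of mix1, numbered 4 copies. In the means all 4 were below water at early gastrula (median -0.15), all 4 higher at late gastrula (median 0.37) and 2 lower and 2 higher at early neurula (median 0.03), with no call. At early gastrula bix1.2.S differed by -0.19 ± 0.44 and bix1.3.S by -0.14 ± 0.41 (adjusted p = 1 each). At late gastrula bix1.1.L differed by 0.40 ± 0.25 and bix1.3.L by 0.34 ± 0.26 (adjusted p = 1 each). At early neurula bix1.3.L differed by 0.26 ± 0.71 and bix1.1.L by -0.27 ± 0.89 (adjusted p = 1 each). During gastrulation they fell, with a median change of -3.33 in Gam1 embryos and -3.84 in water embryos, with 4 of 4 called in each, where 30.1% and 31.1% of all probe sets were called lower in Gam1 and water embryos.

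The GATA factors, which act beside sox17, were 6 copies. Across gastrulation all 6 rose, by a median of 4.60 in Gam1 and 4.45 in water embryos, where 24.3% and 25.0% of all probe sets were called higher. In the late gastrula means of Gam1 embryos 4 copies lay below water and 2 above it, and gata6.S differed by -0.58 ± 0.17 (adjusted p = 0.944) and gata6.L by -0.25 ± 0.07 (adjusted p = 0.859). At early neurula 4 were lower and 2 higher, with a median of -0.43. There gata5.L differed by -0.54 ± 0.17 (adjusted p = 0.619, and 0.0498 when paired over all 18 arrays) and gata6.L by -0.31 ± 0.09 (adjusted p = 0.578, and 0.526 when paired). The paired adjusted p was 0.251 for gata6.S, 0.158 for gata5.S, 0.829 for gata4.L and 0.431 for gata4.S. At early gastrula all 6 were lower, by a median of -0.28, with SEs from 1.06 to 2.27 over the 6 copies. The smallest p belonged to gata5.S (-0.63 ± 1.06) and gata6.L (-0.67 ± 1.91).

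Of the genes listed as later endoderm, 8 of 16 names were found in 9 copies. The copies were a2m.S, cdx1.S, cdx2.L, darmin.L, foxa1.L, foxa1.S, hnf4a.S, pnhd.L and sox7.L. How far each is limited to endoderm at these stages was not tested. Across gastrulation 8 copies averaged higher and 1 lower in each group. Of the higher ones, hnf4a.S was even in water embryos (0.001 ± 0.382) and changed by 0.91 ± 0.38 in Gam1 embryos (adjusted p = 0.0577). The lower one was sox7.L, which changed by -3.68 ± 0.33 in Gam1 and -2.89 ± 0.33 in water embryos, so its course was not that of a later gene. At late gastrula 8 were lower in Gam1 embryos and 1 higher, with a median of -0.13. The higher one was hnf4a.S, which differed by 0.95 ± 0.43 (unadjusted p = 0.0758, and adjusted p = 0.151 when paired over all 18 arrays). The smallest p belonged to sox7.L and darmin.L. The gene darmin.L, which encodes a peptidase of the endoderm, differed by -1.09 ± 0.41 (adjusted p = 1, and 0.0415 when paired over all 18 arrays). Beside it sox7.L, an HMG-box relative of sox17, differed by -0.88 ± 0.32 (adjusted p = 1, and 0.0155 when paired). At early neurula both remained lower in the means, by -0.88 ± 0.37 for darmin.L and -0.65 ± 0.27 for sox7.L (adjusted p = 0.762 and 0.763, and 0.0534 and 0.0298 when paired), and the list was split, 4 lower and 5 higher. Among the higher ones at early neurula, hnf4a.S differed by 0.69 ± 0.43 (adjusted p = 0.868, and 0.245 when paired). At early gastrula darmin.L (-0.38 ± 0.32) and foxa1.S (-0.90 ± 0.82) had the smallest p.

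The signals of the anterior endoderm and prechordal plate, 12 copies, were all lower in the means of Gam1 embryos at early gastrula, with a median of -0.26, and 5 lower and 7 higher at both later stages. At early gastrula dkk1.S, for a secreted Wnt inhibitor, differed by -0.11 ± 0.15 and hhex.L by -0.66 ± 1.29. At late gastrula the organizer gene gsc.L differed by -0.28 ± 0.10 and otx2.L by -0.27 ± 0.16. At early neurula dkk1.S differed by 0.60 ± 0.25 and gsc.L by -0.47 ± 0.24. Of these, dkk1.S at early neurula had the lowest adjusted p, 0.762.

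**Figure D4:**
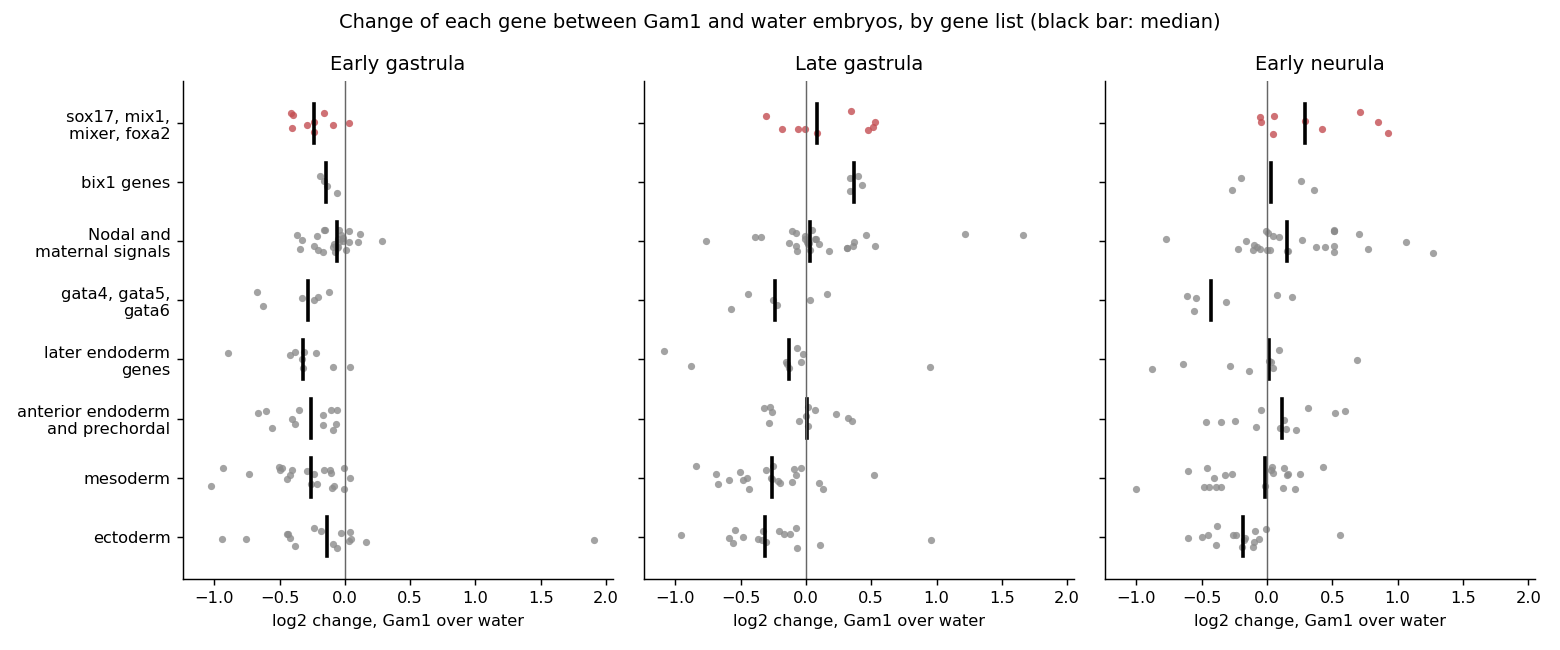
Change between Gam1 and water embryos in log2 units for each gene copy of the lists, by stage. Red points are the 9 member copies, grey points the other lists and black bars medians. The member median is -0.24, 0.08 and 0.29 in stage order, and the ectoderm median is negative at all 3 stages.

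Genes of the other germ layers were measured in the same embryos. Of 21 mesoderm copies 20 (early gastrula), 18 (late gastrula) and 11 (early neurula) were lower in Gam1 embryos, with list medians of -0.26, -0.26 and -0.01. Of 16 ectoderm copies 11, 14 and 15 were lower, with medians of -0.14, -0.32 and -0.19. No copy of these lists was called by the unpaired test. At late gastrula the mesoderm genes tbxt.2.S and mespa.L differed by -0.67 ± 0.15 and -0.69 ± 0.17 (adjusted p = 0.661 and 0.782, and 0.134 and 0.0375 when paired), and the epidermal gene grhl3.S by -0.48 ± 0.18 (adjusted p = 1, and 0.00678 when paired). The epidermal gene foxi1.L differed by 0.96 ± 0.40 in the other direction (adjusted p = 1, and 0.151 when paired). Among the 3 mesoderm copies higher at late gastrula, wnt8a.L differed by 0.52 ± 0.19 (unadjusted p = 0.0389, and adjusted p = 0.0841 when paired). The copies tbxt.L and tbxt.S differed by -0.04 ± 0.15 and 0.13 ± 0.09 at that stage. In the paired fit grhl3.L passed as well at late gastrula (-0.34 ± 0.22 unpaired, paired adjusted p = 0.0414). At early neurula tbxt.2.S differed by -0.60 ± 0.17 and myod1.L, for a myogenic factor, by -0.40 ± 0.13 (adjusted p = 0.587 and 0.657, and 0.142 and 0.16 when paired). The mesoderm gene fgf8.L differed by -0.35 ± 0.14 (adjusted p = 0.747, and 0.0405 when paired). At that stage grhl3.S differed by -0.45 ± 0.07 (adjusted p = 0.217, and 0.00478 when paired) and krt12.4.S by -0.61 ± 0.15 (adjusted p = 0.476, and 0.2 when paired). At early gastrula foxi1.L differed by 1.90 ± 0.74 and sox2.L by -0.94 ± 0.44, and the mesoderm genes ventx1.1.L by -0.26 ± 0.17 and myod1.S by -0.44 ± 0.29, all with an adjusted p of 1.

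Among the 9 member copies 8 Gam1 means were below water and 1 above at early gastrula, with a median of -0.24. At late gastrula 4 were lower and 5 higher, with a median of 0.08, and at early neurula 2 were lower and 7 higher, with a median of 0.29. Lower means at early gastrula were the majority in each of the other 7 lists as well, and the part of the other germ layers in the member values was not tested.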

How the data were processed

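The deposited table holds log2 values of 18 Affymetrix X. laevis arrays, quantile normalized by the authors in Bioconductor. Background correction and probe summarization are not given in the sources used here. Symbols came from the platform annotation (12258 probe sets with 1 symbol, 228 with several, 11144 with none), and the member symbols did not change when updated by gene ID. The 71 control probe sets were left out.

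Groups came from the sample labels. Gam1 and water embryos were compared within each stage by limma 3.58.1 (R 4.3.3) with a trend of the spread, unpaired like the Student's test of the methods. Stages and differences between stages were compared in a fit of all 18 arrays in 6 groups. For changes between stages, that fit treats arrays of the same number as independent although they shifted together. It therefore counts more independent arrays than there are. P-values were adjusted over all 23630 probe sets at 0.05. The biological replicate numbers in the labels were checked as pairs, and the study ties its replicates to variation between egg clutches. For arrays of the same number, deviations from the group means correlated at 0.904 to 0.941 (early gastrula), 0.765 to 0.81 (late gastrula) and 0.686 to 0.808 (early neurula). The numbers therefore pair the arrays within a stage, and a match of numbers between stages was not checked. For different numbers within a stage the deviations correlated between -0.62 and -0.233. Deviations within a group cancel out, so these negative values follow from the positive ones and add nothing to the pairing.

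All probe sets of the members were named, with the 3 most similar genes for each and, from each list, the 2 genes with the smallest unadjusted p at each stage. Genes mentioned beyond these were chosen after their values were seen. Members and lists were chosen with earlier results of these data known. Alternatives were the replicate block, a shared spread, the methods' test, no trend, a minimum mean of 4 or 6, renewed quantile normalization, median centring and leaving out arrays. The code was tested on simulated data. Figures were made with matplotlib 3.10.9 in Python 3.11.15.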

Additional observations from a re-analysis of the deposited data

Results flagged for a closer look

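Pair differences between Gam1 and water embryos had opposite signs at 2 stages for mix1.S and mixer.L, genes of the Nodal-induced homeobox group. In mix1.S all 3 replicates were lower in Gam1 than in water embryos at early gastrula and all 3 higher at early neurula, and the effects differed by 1.17 log2 units. In mixer.L the same held, with a difference of 1.12 log2 units. Of all probe sets, 15.6% were lower in all 3 pairs at early gastrula and 22.6% higher in all 3 at early neurula. How many met both conditions was not counted, so these 2 members have no background share beside them. The interaction test gave an adjusted p of 1 for both without pairs, and 0.232 for mix1.S and 0.176 for mixer.L with arrays paired by replicate number over all stages, so neither difference passed. No test for outlying samples was run on groups of 3 arrays, and the replicates that lay apart are described by their deviations above.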

How the results depend on the processing

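Of 1235 member values under alternative settings, 1213 kept their side of the threshold, 16 lost it and 6 gained it. Most of these values came from comparisons in which no member was called, so they had no call to lose. All losses fell on changes between stages. Across gastrulation they were 4 of 70 values in Gam1 and 3 of 70 in water embryos. After late gastrula they were 3 of 70 in Gam1 and 6 of 70 in water embryos. No called value changed direction, while 74 values that were not called changed sign. The unpaired comparisons of Gam1 with water called 0 members at each stage, and under the replicate block over all 18 arrays this became 1 at early neurula. The replicate block within a stage changed no call between Gam1 and water embryos. Between stages the block added the calls of sox17a.L, mix1.S and mixer.L in water and sox17b.1.L in Gam1 embryos given above, and changed no other.

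Over all probe sets, the Gam1 comparisons called 0 at each stage. With the replicate block over all 18 arrays the counts were 38, 909 and 1890 in stage order. Leaving out a replicate number from that fit, chosen after seeing the data, gave 0 in each case for early gastrula, 27, 0 and 86 for late gastrula and 614, 117 and 241 for early neurula (replicates 1, 2 and 3 left out). Without the block, a spread shared by all arrays gave 49 and 139 at the later stages, a mean of at least 4 gave 15 and 32, and a mean of at least 6 gave 14 and 33. The methods' test called 1 at early gastrula after adjustment. Leaving out arrays one at a time or by number gave 0 to 2 at late gastrula and 0 to 7 at early neurula.

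Across gastrulation 5 members were called, and with a replicate left out 3 to 4 in Gam1 and 3 to 5 in water embryos, 3 in both without replicate 1. After late gastrula the count was 0 without any 1 of the replicates, against 1 in Gam1 and 2 in water embryos, and 4 in water embryos with the replicate block. Over all probe sets that block called 8229 instead of 4382 in Gam1 embryos and 7607 instead of 3649 in water embryos. Leaving out replicates gave 520 to 3305 in Gam1 and 218 to 3252 in water embryos, lowest without replicate 3.

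Differences of the Gam1 effect called 1, 1 and 11 probe sets for late minus early gastrula, early neurula minus late gastrula and early neurula minus early gastrula. With the replicate block they were 3 and 51 for the second and last, and over all 18 arrays in pairs 45, 25 and 231. A mean of at least 4 gave 0 and 7 for the second and last. Leaving out replicates gave 0 to 3, 1 to 10 and 2 to 20, and in the paired fit 0, 0 to 5 and 0 to 119 (119, 0 and 29 for the last without replicates 1, 2 and 3). Causes were not tested. Precision is limited by 3 arrays per group, of which 1 lay apart at early gastrula and 1 at early neurula.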
